A study of Homo sapiens with 66 samples.

Results

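RNA polymerase III is the nuclear enzyme that makes transfer RNA, 5S ribosomal RNA, U6 and other short RNAs, and 9 genes for its subunits were followed here through 11 acute myeloid leukaemia (AML) cell lines before and after etoposide. The genes were taken by symbol as POLR3A, POLR3B, POLR3C, POLR3D, POLR3E, POLR3F, POLR3G, POLR3GL and POLR3K, which are 9 of 57992 gene identifiers counted, and all 9 passed the filter on low counts in every line. The set was selected on the etoposide log2 fold change of POLR3G, which is below 0 and past the limits of the call in most lines. Changes of the 9 genes with etoposide are therefore given as a description without p-values, whereas levels in untreated cells played no part in the choice and are tested.

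Each line was either left untreated or given etoposide, a topoisomerase II poison that leaves DNA breaks, for 24 hours at the IC50 of that line. The dose thus differed between lines, and a difference in response between lines cannot be told apart from one in dose. There were 3 libraries of each line and treatment, 66 in all, and RNA for a library came from 3 pooled wells. In the order of their POLR3G level, the lines were F-36P (labelled F36P), MOLM-13 (MOLM13), KASUMI-1 (KASUMI1), NB-4 (NB4), MV-4-11 (MV411), OCI-AML2 (OCIAML2), OCI-AML3 (OCIAML3), HL-60 (HL60), NOMO-1 (NOMO1), THP-1 (THP1) and MONO-MAC-6 (MONOMAC6). The methods speak in general of 3 biological replicates and do not say for these libraries what a replicate was. The p-values therefore measure only the spread between libraries of the same line. In the comparison of untreated lines that spread was estimated for each gene over all lines together, not from the compared lines alone. Each line stands for 1 leukaemia. The study grew the lines with different serum levels and supplements, so a difference between untreated lines cannot be told apart from one in culture. F-36P is an erythroid line, NB-4 carries the PML-RARA fusion and KASUMI-1 the RUNX1-RUNX1T1 fusion, OCI-AML3 carries mutated NPM1, and MOLM-13, MV-4-11, MONO-MAC-6, NOMO-1 and THP-1 carry KMT2A rearrangements.

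Polymerase III is built in layers around a catalytic core. POLR3A and POLR3B form the active centre, POLR3K sits near it and acts in RNA cleavage and termination, POLR3D and POLR3E form a pair that resembles the general factor TFIIF and acts in termination and reinitiation, and POLR3C, POLR3F and one of POLR3G or POLR3GL form a trimer that contacts the initiation factor TFIIIB. POLR3G and POLR3GL are paralogues that replace each other in the enzyme. POLR3G is known for its high level in stem cells and many cancer cells, and POLR3GL for its broad presence in differentiated tissue. Libraries were made from polyadenylated RNA, so they measure the messenger RNAs of the subunits and not the transcripts that polymerase III makes.

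The genes lie on 7 chromosomes. On GRCh38, POLR3G spans chromosome 5 from 90471748 to 90514557 on the plus strand. POLR3GL spans chromosome 1 from 145964690 to 145978848, on the plus strand and downstream of POLR3C, which spans 145824053 to 145844402 of the same strand. POLR3K and POLR3E are both on chromosome 16, POLR3A is on 10, POLR3B on 12, POLR3D on 8 and POLR3F on 20. The coding genes RNF115, DZANK1 and MBLAC2 overlap POLR3C, POLR3F and POLR3G on the opposite strand, and the counts were taken to follow strand. Processed pseudogenes of POLR3D, POLR3G and POLR3K held at most 24 reads each over all 66 libraries.

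RefSeq promoter windows on GRCh38.p14, each from 250 bases before to 50 bases after a transcription start, were on hand for 7 of the 9 genes and numbered 9, since POLR3B and POLR3C have 2 each. POLR3D and POLR3G have no entry. Windows that hold the E-box CACGTG, the motif bound by MYC and related factors, are printed with those of POLR3GL and POLR3K, which hold CCAAT boxes, because MYC levels are set beside POLR3G below and because POLR3GL did not follow POLR3G. Capitals mark an E-box, a CCAAT box (CCAAT or ATTGG) or, in POLR3E and POLR3K, the letters GTTCGANNC of the B box, which TFIIIC binds inside transfer RNA genes.
POLR3A (chr10:78029466-78029765, minus strand): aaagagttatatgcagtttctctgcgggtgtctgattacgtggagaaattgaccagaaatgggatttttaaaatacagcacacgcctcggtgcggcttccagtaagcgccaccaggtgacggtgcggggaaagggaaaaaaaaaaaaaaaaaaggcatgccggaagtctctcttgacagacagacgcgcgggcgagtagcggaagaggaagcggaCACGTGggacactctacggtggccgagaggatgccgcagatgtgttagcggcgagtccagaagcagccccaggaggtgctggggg
POLR3C (chr1:145823950-145824249, plus strand): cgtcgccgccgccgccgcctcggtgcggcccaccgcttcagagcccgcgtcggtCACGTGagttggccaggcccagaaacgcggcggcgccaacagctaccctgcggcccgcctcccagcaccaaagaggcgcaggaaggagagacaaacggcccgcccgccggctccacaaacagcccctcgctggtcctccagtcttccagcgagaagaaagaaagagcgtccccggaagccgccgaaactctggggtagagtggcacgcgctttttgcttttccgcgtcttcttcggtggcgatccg
POLR3E (chr16:22297159-22297458, plus strand): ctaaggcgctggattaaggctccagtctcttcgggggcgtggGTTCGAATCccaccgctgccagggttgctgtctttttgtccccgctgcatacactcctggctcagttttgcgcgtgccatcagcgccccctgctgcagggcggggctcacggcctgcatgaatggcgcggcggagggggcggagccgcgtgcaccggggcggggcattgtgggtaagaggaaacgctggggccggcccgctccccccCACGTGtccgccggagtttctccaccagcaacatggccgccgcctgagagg
POLR3GL (chr1:145964440-145964739, plus strand): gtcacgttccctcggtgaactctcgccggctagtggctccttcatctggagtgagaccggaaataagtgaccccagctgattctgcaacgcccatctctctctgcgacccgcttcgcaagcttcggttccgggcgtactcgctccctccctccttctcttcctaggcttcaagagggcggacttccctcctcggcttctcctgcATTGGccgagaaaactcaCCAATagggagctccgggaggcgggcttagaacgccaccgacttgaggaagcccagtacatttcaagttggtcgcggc
POLR3K (chr16:53559-53858, minus strand): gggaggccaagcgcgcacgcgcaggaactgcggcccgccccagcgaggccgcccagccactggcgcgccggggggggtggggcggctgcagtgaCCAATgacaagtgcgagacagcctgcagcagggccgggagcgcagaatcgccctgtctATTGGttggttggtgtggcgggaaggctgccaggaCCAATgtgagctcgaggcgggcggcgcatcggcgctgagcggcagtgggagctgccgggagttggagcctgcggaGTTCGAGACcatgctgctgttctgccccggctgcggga

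An E-box stood in 3 of the 9 windows. It began 35 bases before the start of POLR3A, 196 before that of POLR3C and 1 before that of POLR3E, and 7.26% of all 35116 RefSeq windows of the same length hold one. CCAAT boxes stood in 4 windows against 34.6% of all windows, with 3 copies in POLR3K, 2 in POLR3GL and 1 each in POLR3B and POLR3C. The GC box GGGCGG stood in 7 windows against 45.0%, the ETS motif CCGGAAGT in 1 window (POLR3A) against 4.14%, and the E2F motif TTTGGCGC in 0 against 0.652%. The B box, searched after the POLR3E window had been read, began 208 bases before the POLR3E start and within the first bases after the POLR3K start, and it stands in 0.829% of all windows. All 6 motifs were searched on both strands, and none of the 25 matches overlapped another. A match is only a match of letters.

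Depth was even, with 17997404 to 24101670 reads on genes per library. CDKN1A, the p53 target that encodes the cell cycle inhibitor p21, was called higher in 10 lines, with log2 fold changes from 1.86 ± 0.05 (SE) in MV-4-11 to 5.46 ± 0.12 in OCI-AML3. In OCI-AML2 it was only 1.66-fold higher (log2 fold change 0.73 ± 0.06 SE, adjusted p = 0.000289, edgeR quasi-likelihood test), and 0 of 13604 genes there passed both limits of the call (3 at an FDR below 0.05 alone, 456 at an unadjusted p below 0.05, and 0 called by DESeq2). The study discarded the OCI-AML2 etoposide libraries for the quality of their raw reads, so summaries below are over the other 10 lines unless 11 are named. The myeloid markers PTPRC, SPI1, CD33 and LYN were above 1 CPM in all 11 lines, MPO in 10.

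POLR3G messenger RNA was lower after etoposide in every line but OCI-AML2. A gene was called where its FDR was below 0.05 and its fold change above 2, and POLR3G was called lower in 9 of 11 lines. Over all genes tested, 3.61% of gene and line pairs were called lower, and since the choice of the set used this contrast nothing is read from that difference. Levels are given as CPM, the reads of a gene scaled to the same total in each library, normalized within a line. In bulk RNA, less POLR3G in each cell and fewer of the cells that carry it cannot be told apart.

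The largest change was in MONO-MAC-6. Its untreated libraries held 13.1, 10.8 and 12.2 CPM of POLR3G and its etoposide libraries 2.59, 2.37 and 1.79 CPM, a log2 fold change of -2.42 ± 0.14 (SE). These were also the lowest levels on both sides of the comparison among the 10 lines. F-36P, whose cells express erythroid genes, started from the highest level, with 30.7, 43.2 and 51.7 CPM, and fell to 9.91, 8.12 and 7.15 CPM, by 2.32 ± 0.21 on the log2 scale. Its untreated libraries spread more than those of any other line (SD 10.6 CPM), yet the lowest of them was over the highest etoposide library.

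KASUMI-1, MV-4-11 and OCI-AML3 formed a group with log2 fold changes close to -1.8. KASUMI-1 went from 31.2, 30.1 and 21.1 CPM to 7.61, 6.24 and 8.84 CPM (-1.86 ± 0.18). MV-4-11 went from 24.5, 23.7 and 23.2 CPM to 7.86, 6.70 and 6.06 CPM (-1.79 ± 0.10). OCI-AML3 went from 21.1, 18.7 and 18.7 CPM to 6.83, 5.68 and 4.37 CPM (-1.79 ± 0.15). In these lines the treated level was under 0.3 of the untreated level, at ratios of 0.276, 0.289 and 0.289.

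MOLM-13, NB-4 and NOMO-1 came next. MOLM-13 had 38.2, 32.2 and 34.9 CPM untreated and 13.8, 9.59 and 11.2 CPM with etoposide (-1.61 ± 0.13). NB-4 had 28.8, 25.7 and 28.4 CPM untreated and 12.3, 8.93 and 9.54 CPM with etoposide (-1.43 ± 0.13). NOMO-1 had 18.9, 14.1 and 13.0 CPM untreated and 5.28, 6.08 and 7.33 CPM with etoposide (-1.30 ± 0.17). No treated library reached an untreated library of its line.

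The limit of the call ran between THP-1 and HL-60. THP-1, just inside it, had 15.3, 14.4 and 12.1 CPM untreated and 6.80, 5.96 and 8.05 CPM with etoposide, a ratio of 0.499. HL-60, just outside it, had 20.2, 13.7 and 18.1 CPM untreated and 8.43, 9.51 and 8.70 CPM with etoposide, a ratio of 0.512. The groups did not overlap in either line. The THP-1 call was lost under 8 alternatives, at a log2 fold change of -0.87 without etoposide replicate 2, -0.92 without untreated replicate 1, -0.95 without untreated replicate 2, -0.99 without etoposide replicate 1, -0.98 with RLE, -0.94 with library size alone, -0.98 with DESeq2 and -0.96 in 1 fit of all 66 libraries. HL-60 was called without untreated replicate 2 (-1.11) or without etoposide replicate 2 (-1.005).

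In OCI-AML2 POLR3G had 20.5, 19.7 and 19.9 CPM in untreated and 19.9, 20.5 and 17.6 CPM in etoposide libraries, which overlapped, and the log2 fold change was -0.05 ± 0.08. Counted by groups that do not overlap, POLR3G was lower in 10 of 11 lines, where 26.4% of gene and line pairs were lower in that sense. Over the 10 lines the median log2 fold change was -1.70 with an SD of 0.49 between lines. In all 10 lines POLR3G had the lowest log2 fold change of the 9 genes, and its mean of -1.65 was undercut by 0.0105% of 9563 coding genes, which is 1 gene. Since the set was chosen on this change of POLR3G, nothing is read from these ranks.

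**Figure D1:**
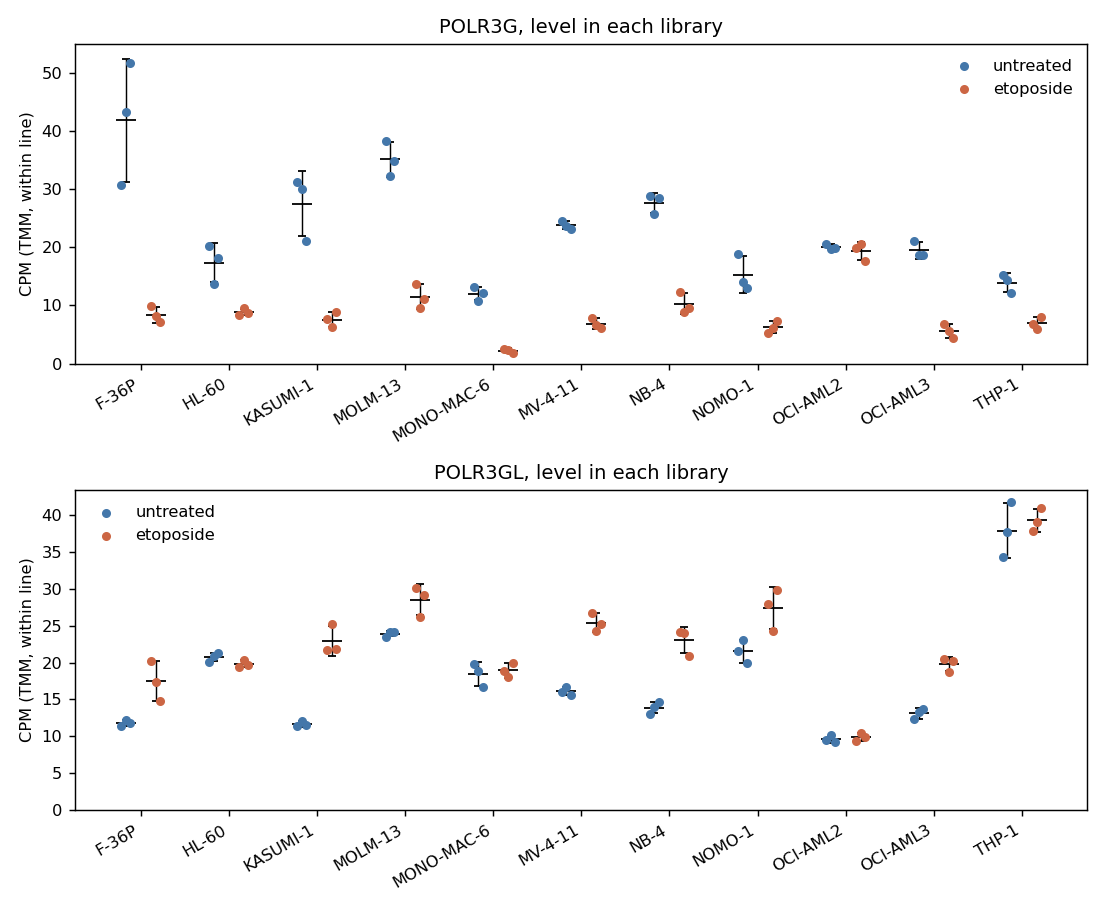
Level of POLR3G (top) and POLR3GL (bottom) in CPM, normalized within each line, in each of 66 libraries: untreated (blue) and etoposide (orange), with black bars for the mean ± SD of 3 libraries. POLR3G is lower with etoposide without overlap in every line but OCI-AML2, while POLR3GL is higher without overlap in 7 lines.

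POLR3GL, the paralogue, did not fall with POLR3G. It was called in 0 of 11 lines in either direction, by edgeR and by DESeq2, while 10.1% of gene and line pairs over all genes were called higher. At an FDR below 0.05 alone it was higher in 7 lines and lower in 0, where 25.3% of all pairs were higher and 22.3% lower, and the groups did not overlap in those 7 lines, where 29.0% of all pairs were higher. Its log2 fold change ran from -0.07 in HL-60 to 0.98 in KASUMI-1, with a median of 0.45 over 10 lines.

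KASUMI-1 had 11.4, 12.1 and 11.5 CPM of POLR3GL untreated and 21.8, 25.3 and 21.8 CPM with etoposide, so that the treated level was 1.97 times the untreated one. The pair was called, as higher, with library size alone (1.15), in 1 fit of all libraries (1.02), and without etoposide replicate 1 or 3 (1.01 each). NB-4 had 13.1, 14.0 and 14.6 CPM untreated and 24.2, 24.1 and 21.0 CPM with etoposide (0.73 ± 0.11). MV-4-11 had 16.1, 16.7 and 15.6 CPM untreated and 26.8, 24.3 and 25.3 CPM with etoposide (0.66 ± 0.09). In these 3 lines, and in F-36P (0.56 ± 0.15), OCI-AML3 (0.60 ± 0.09), NOMO-1 (0.34 ± 0.11) and MOLM-13 (0.25 ± 0.08), all treated libraries were above all untreated ones.

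POLR3GL stayed close to its untreated level in the other lines. THP-1, the line with the most POLR3GL, had 34.3, 37.7 and 41.8 CPM untreated and 37.9, 39.1 and 41.0 CPM with etoposide (0.05 ± 0.13). MONO-MAC-6, where POLR3G fell most, had a POLR3GL log2 fold change of 0.04 ± 0.08. HL-60 had -0.07 ± 0.11, which turned to 0.04 with library size alone, and OCI-AML2 had 0.04 ± 0.10.

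The balance between the paralogues was read per kilobase of their canonical transcripts (3.29 kb for POLR3G and 1.18 kb for POLR3GL), since levels of different genes compare only per length. In untreated cells POLR3G made up 55.3% ± 6.1 (SD, n = 3) of the summed reads per kb in F-36P, 45.4% ± 5.2 in KASUMI-1, 42.8% ± 1.5 in OCI-AML2 and 41.6% ± 2.3 in NB-4. It made up 34.7% ± 2.9 in OCI-AML3, 34.6% ± 0.9 in MV-4-11 and 34.4% ± 2.3 in MOLM-13. The lowest shares were 23.0% ± 3.7 in HL-60, 20.2% ± 3.2 in NOMO-1, 19.0% ± 1.9 in MONO-MAC-6 and 11.7% ± 2.2 in THP-1. POLR3GL was thus the more abundant paralogue in 10 of 11 untreated lines, and POLR3G in 1, F-36P, where 1 of the 3 libraries (49.0%) was below an even share. With the bases of all annotated exons in place of the canonical transcript, a length measure added after the data had been seen, POLR3G was the more abundant in 2 lines.

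After etoposide the share of POLR3G lay between 4.1% ± 0.9 in MONO-MAC-6 and 14.7% ± 0.3 in F-36P over the 10 lines. The lines that had started far apart ended closer together, since F-36P and KASUMI-1 lost most of their share (to 14.7% and 10.6%) and THP-1 went to 5.9% ± 0.7. On the log2 scale the ratio of POLR3G to POLR3GL moved by -2.85 in F-36P, -2.83 in KASUMI-1, -2.47 in MONO-MAC-6 and -2.46 in MV-4-11, and by -0.88 in HL-60, the smallest shift of the 10. OCI-AML2 kept 41.2% ± 2.1 with etoposide.

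**Figure D2:**
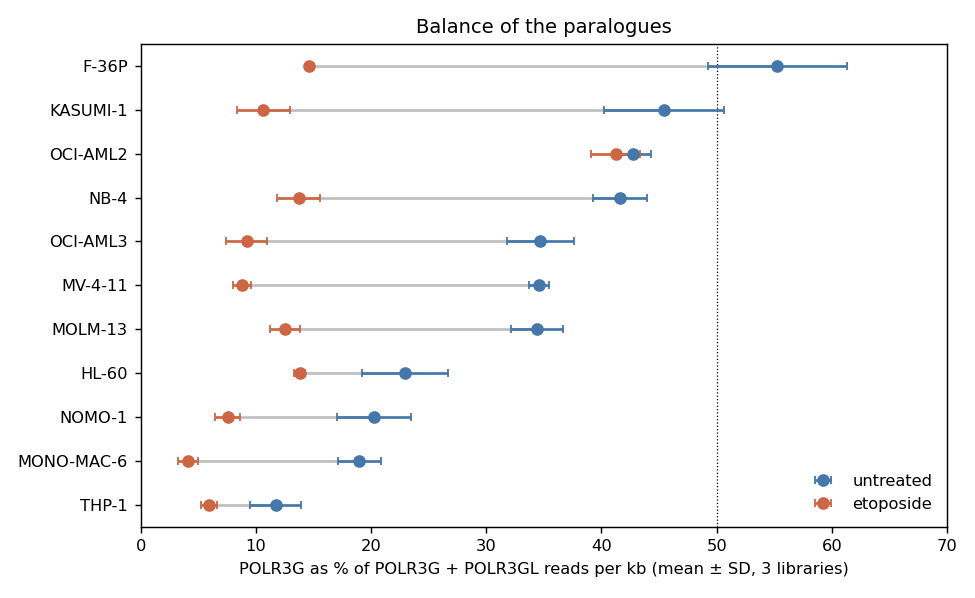
POLR3G as a percentage of POLR3G plus POLR3GL reads per kb of transcript (horizontal axis) in each line, untreated (blue) and with etoposide (orange), as mean ± SD of 3 libraries. Untreated lines range from 11.7% to 55.3%, and the 10 lines other than OCI-AML2 end between 4.1% and 14.7%.

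The other 7 subunit genes moved less. Of their 77 gene and line pairs, 5 were called lower and 0 higher. Over all genes and the same 11 lines, 3.61% of pairs were called lower and 10.1% higher. Of the 5 pairs 4 were in KASUMI-1, where 6.52% of all genes were called lower. The KASUMI-1 etoposide libraries had the lowest median log2 fold change over the 9 genes (-1.01), beside a median of 0.03 over all genes tested there. The median over the 9 genes was -0.80 in F-36P, and it was highest in HL-60 (0.09) and THP-1 (0.09).

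Of the catalytic pair, POLR3B was lower without overlap of the groups in 11 of 11 lines, OCI-AML2 included. Of all gene and line pairs 26.4% were lower in that sense, and of the genes in OCI-AML2 3.56%. At an FDR below 0.05 alone POLR3B was lower in 8 lines, where 22.3% of all pairs were lower. It did not pass in OCI-AML2 (-0.16 ± 0.07), NOMO-1 (-0.20 ± 0.09) or THP-1 (-0.16 ± 0.15). Its log2 fold change ran from -1.17 in KASUMI-1 to -0.16 in THP-1 over the 10 lines (median -0.67). In KASUMI-1 it had 17.98, 22.1 and 18.5 CPM untreated and 8.61, 8.62 and 8.84 CPM with etoposide. In F-36P it had 61.3, 87.5 and 89.8 CPM untreated and 45.4, 41.5 and 34.6 CPM with etoposide (-0.97 ± 0.17), a pair that was called with RLE, without the filter, with DESeq2 and without untreated or etoposide replicate 1, at -1.02 to -1.17. The KASUMI-1 call of POLR3B was lost with library size alone (-0.99). POLR3A, the largest subunit, was called lower only in KASUMI-1, from 127.7, 113.7 and 118.2 CPM to 64.3, 56.6 and 58.1 CPM (-1.01 ± 0.09), a ratio of 0.498. That call was lost under 5 alternatives, at -0.83 with library size alone, -0.96 in 1 fit of all libraries, -0.97 without untreated replicate 1, -0.97 without etoposide replicate 2 and -0.99 without etoposide replicate 3. In HL-60 and THP-1 POLR3A was not lower, at 0.09 ± 0.10 and 0.20 ± 0.13.

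The POLR3D and POLR3E pair moved together in KASUMI-1. There POLR3E went from 47.1, 50.6 and 53.2 CPM to 20.6, 19.6 and 19.7 CPM (-1.33 ± 0.09), and POLR3D from 60.0, 67.7 and 70.5 CPM to 29.4, 28.8 and 28.1 CPM (-1.20 ± 0.09). In THP-1 they parted, with POLR3E at -0.21 ± 0.13 and POLR3D at 0.52 ± 0.14, the latter from 42.4, 36.6 and 43.6 CPM to 51.9, 68.9 and 55.6 CPM. Over 10 lines the median was -0.55 for POLR3E, which was negative in all of them, and -0.16 for POLR3D. In F-36P POLR3E had -0.95 ± 0.12 and was called with RLE, without the filter, with DESeq2 and without untreated or etoposide replicate 3, at -1.001 to -1.09.

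POLR3K was the most variable of the 7 between lines (SD 0.51). It was called lower in F-36P, from 44.5, 44.5 and 37.0 CPM to 20.1, 21.9 and 18.9 CPM (-1.05 ± 0.13), a call lost with library size alone (-0.80). In HL-60 it went the other way, from 31.9, 24.5 and 29.2 CPM to 32.8, 39.5 and 48.9 CPM (0.50 ± 0.14). MOLM-13 (-0.87 ± 0.08) and MV-4-11 (-0.73 ± 0.07) were nearer to F-36P, and NOMO-1 (0.27 ± 0.09) to HL-60.

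POLR3C and POLR3F, the partners of POLR3G and POLR3GL in the trimer, were called in 0 lines by edgeR and by DESeq2. POLR3C had its highest log2 fold changes in THP-1 (0.73 ± 0.12), NOMO-1 (0.72 ± 0.08), NB-4 (0.68 ± 0.09) and HL-60 (0.61 ± 0.14). In THP-1 its libraries went from 67.5, 72.1 and 69.0 CPM to 114.9, 111.6 and 119.2 CPM, so that there POLR3C rose while POLR3G fell. POLR3F had a median of 0.18, and it was highest in HL-60, from 24.3, 25.6 and 23.6 CPM to 38.7, 29.0 and 42.9 CPM (0.59 ± 0.13). In MOLM-13 both were slightly lower, at -0.28 ± 0.08 and -0.24 ± 0.09. At an FDR below 0.05 alone, POLR3C was higher in 5 lines and lower in 2, and POLR3F higher in 2 and lower in 1 of 11 lines, where 25.3% of all gene and line pairs were higher and 22.3% lower.

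**Figure D3:**
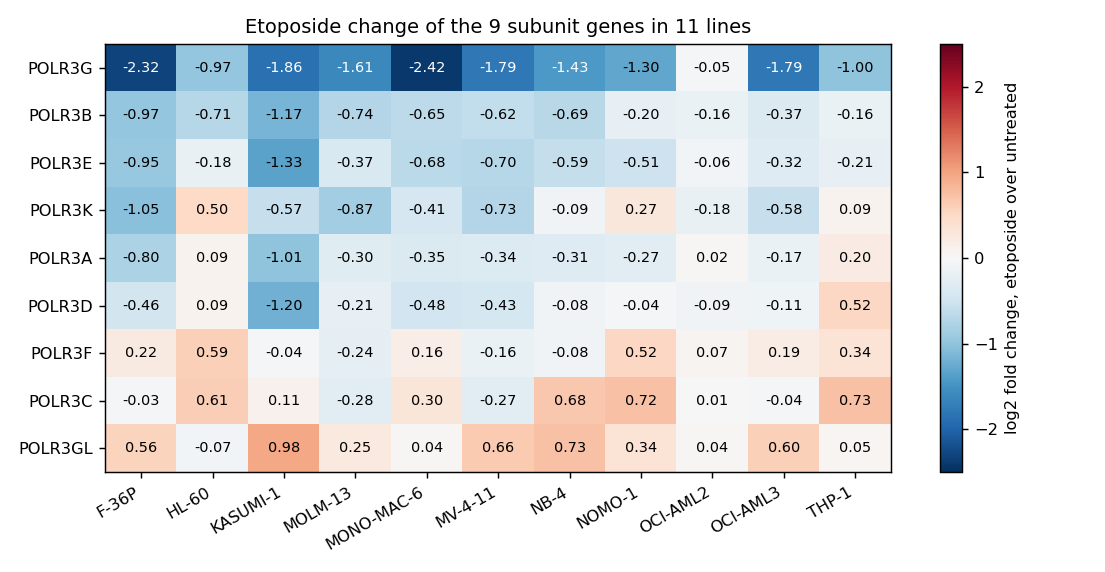
Log2 fold change with etoposide of the 9 subunit genes (rows, ordered by their mean over the 10 lines other than OCI-AML2) in 11 lines (columns), with the value in each cell and the colour scale at the right. The POLR3G row is the lowest in every line but OCI-AML2, and the POLR3C, POLR3F and POLR3GL rows hold the most values above 0.

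Levels in untreated cells were compared between all 55 pairs of lines in 1 edgeR fit of the 33 untreated libraries, a comparison that was not used to choose the genes. Here CPM is normalized over those 33 libraries, so it differs slightly from the values above. Over all genes, 36% of gene and pair combinations passed the FDR and the fold change limit, and 66.8% passed the FDR alone. Of the 9 genes POLR3B differed in most pairs (19 of 55), followed by POLR3G (13), POLR3GL (12), POLR3D (11), POLR3K (9), POLR3F (5), POLR3A (4), POLR3E (3) and POLR3C (0). Each of these shares, at most 34.5%, was below that of all genes. By the FDR alone 7 of the 9 genes were above the share of all genes, from 72.7% of pairs for POLR3A and POLR3K to 85.5% for POLR3GL, with 74.5% for POLR3G, while POLR3F (65.5%) and POLR3C (60.0%) were below it.

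POLR3G was highest in F-36P, with 30.3, 40.4 and 47.1 CPM, and lowest in MONO-MAC-6, with 12.6, 10.4 and 11.7 CPM. The lines differed 3.39-fold (log2 difference 1.76 ± 0.15 SE, adjusted p = 1.08e-12, edgeR quasi-likelihood test). Between them stood MOLM-13 (36.6 ± 3.1 CPM, SD, n = 3), KASUMI-1 (27.5 ± 5.4), NB-4 (26.3 ± 1.6), MV-4-11 (22.3 ± 0.7), OCI-AML2 (20.03 ± 0.5), OCI-AML3 (19.3 ± 1.4), HL-60 (16.2 ± 3.1), NOMO-1 (13.7 ± 2.8) and THP-1 (13.6 ± 1.6). Neighbours in the order were compared by the FDR alone. Of the 10 pairs of neighbours 1 differed, MOLM-13 over KASUMI-1 (0.41 ± 0.14, adjusted p = 0.0105, edgeR), and in 7 of the 10 the libraries overlapped.

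POLR3GL had another order. THP-1 was highest, with 33.4, 36.6 and 40.8 CPM, and OCI-AML2 lowest, with 9.51, 10.1 and 9.19 CPM, a 3.85-fold difference (1.94 ± 0.09, adjusted p = 6.83e-20, same test). THP-1 was above MOLM-13, which had 24.9 ± 0.4 CPM (0.57 ± 0.08, adjusted p = 1.76e-07), and MOLM-13 was above HL-60, which had 19.4 ± 0.5 CPM (0.36 ± 0.08, adjusted p = 0.000251). Then came NOMO-1 (19.3 ± 1.5), MONO-MAC-6 (17.7 ± 1.5), MV-4-11 (15.1 ± 0.5), NB-4 (13.2 ± 0.7), OCI-AML3 (13.0 ± 0.7), KASUMI-1 (11.7 ± 0.3) and F-36P (11.2 ± 0.4). Of its 10 pairs of neighbours 4 differed by the FDR alone, the others being MONO-MAC-6 over MV-4-11 (0.23 ± 0.09, adjusted p = 0.0157) and F-36P over OCI-AML2 (0.22 ± 0.09, adjusted p = 0.0347). F-36P was at rank 1 for POLR3G and 10 for POLR3GL, and THP-1 at rank 1 for POLR3GL and 10 for POLR3G. MOLM-13 was at rank 2 for both, and the lowest lines were not at opposite ends, MONO-MAC-6 being at rank 5 for POLR3GL and OCI-AML2 at rank 6 for POLR3G. Over the 11 lines the levels of the paralogues had a Pearson r of -0.39 and a Spearman rho of -0.46, given as a description of lines that share 1 normalization, and r was -0.28 without F-36P.

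POLR3B had the widest range of the 9 genes. F-36P held 60.6, 81.8 and 81.9 CPM and MONO-MAC-6 10.9, 10.8 and 11.7 CPM, a 6.71-fold difference (2.75 ± 0.11, adjusted p = 4.53e-22). F-36P stood above the next line, OCI-AML3 (36.1 ± 1.7 CPM), by 1.05 ± 0.10 on the log2 scale (adjusted p = 8.80e-12), the widest gap between neighbours of the 9 genes. POLR3C was the most even, from 38.2 ± 0.4 CPM in OCI-AML2 to 67.7 ± 2.2 CPM in THP-1, and 0 of its 10 neighbours differed. For POLR3C 33 of the 55 pairs passed the FDR alone, 36 an unadjusted p below 0.05, and DESeq2 also called 0 pairs. Its spread over lines on the log2 scale (SD 0.25) was exceeded by 95.8% of 13669 genes, against 52.7% for POLR3G and 41.0% for POLR3B.

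Single lines stood out for other subunits. POLR3D was lowest in HL-60, with 24.3, 26.1 and 23.5 CPM, below THP-1 with 39.8 ± 3.7 CPM (0.69 ± 0.09, adjusted p = 4.46e-08). POLR3K was lowest in KASUMI-1, with 14.0, 13.6 and 15.8 CPM, below HL-60 with 26.6 ± 3.4 CPM (0.88 ± 0.10, adjusted p = 4.07e-09). KASUMI-1 had at the same time the most POLR3A (120.1 ± 7.1 CPM) and the least POLR3E (50.4 ± 3.3 CPM). THP-1 had the least POLR3A (42.9 ± 2.2 CPM, below NOMO-1 by 0.55 ± 0.09, adjusted p = 9.84e-07) and the least POLR3F (9.82 ± 0.81 CPM). POLR3E was highest in NB-4 (119.8 ± 2.1 CPM), above HL-60 (0.20 ± 0.07, adjusted p = 0.0168).

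Compared per kb of canonical transcript, the medians over the 11 untreated lines were 28.0 CPM per kb for POLR3K, 21.3 for POLR3E, 12.8 for POLR3GL, 12.6 for POLR3C, 12.0 for POLR3D, 11.6 for POLR3A, 8.60 for POLR3F, 6.09 for POLR3G and 5.76 for POLR3B. The order depends on the length used. Per kb of all annotated exons the medians were 20.5 CPM per kb for POLR3K, 11.5 for POLR3D, 8.32 for POLR3GL, 8.29 for POLR3E, 5.05 for POLR3B, 4.98 for POLR3G, 4.86 for POLR3A, 3.95 for POLR3C and 2.75 for POLR3F. POLR3K was highest by both lengths, while POLR3A was above POLR3B by the canonical transcript only.

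**Figure D4:**
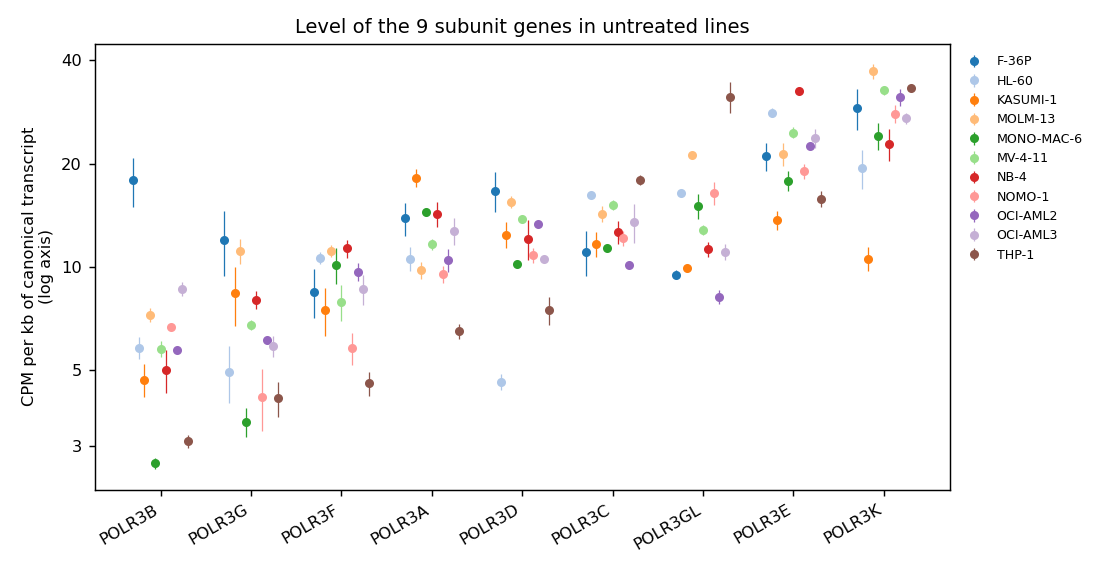
Level of each of the 9 subunit genes in untreated cells, in CPM per kb of canonical transcript on a log axis, with 1 point per line (mean ± SD of 3 libraries) and genes ordered by their median. By this length POLR3B and POLR3G have the lowest medians (5.76 and 6.09), and F-36P stands apart for POLR3B and THP-1 for POLR3GL.

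Of the rest of the polymerase III machinery 28 genes are reported, of which POLR2F could not be tested, and the counts of this list cover only these genes. Over 10 lines and 270 gene and line pairs, 4 were called, each of them lower (1.48%), where of all pairs 3.96% were called lower and 11.1% higher. At an FDR below 0.05 alone 115 pairs were lower (42.6%, against 24.4%) and 22 higher (8.15%, against 27.7%). The lowest medians among them were those of POLR2H (-0.53) and SSB (-0.52), beside -1.70 for POLR3G.

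CRCP, a subunit of the stalk of the enzyme, had a median log2 fold change of 0.05. At an FDR below 0.05 alone it was lower in 2 lines and higher in 3. It was lowest in F-36P, where it went from 48.4 ± 3.5 to 29.8 ± 1.4 CPM (-0.70 ± 0.12, adjusted p = 0.00057, edgeR quasi-likelihood test, n = 3). In THP-1, the highest, it went from 32.0 ± 0.9 to 48.7 ± 3.4 CPM (0.61 ± 0.13, adjusted p = 0.00135, edgeR). Of the subunits shared with polymerase I or II, POLR1C and POLR2E were each called lower in 1 line.

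Among the initiation factors, GTF3A, the TFIIIA protein that serves only 5S ribosomal RNA genes, was called lower in KASUMI-1 (-1.34 ± 0.08, adjusted p = 1.12e-06, edgeR) and F-36P (-1.05 ± 0.11, adjusted p = 2.45e-05, edgeR). The TFIIIC subunits, which bind the internal promoters of transfer RNA genes, were called in 0 lines, and at an FDR below 0.05 alone GTF3C4 was lower in 10 lines and GTF3C2 in 9, with medians of -0.48 and -0.39. TFIIIB (BRF1, BRF2, TBP and BDP1) was called in 0 of 40 pairs, with 10 lower and 6 higher at an FDR below 0.05 alone. BRF2, which serves U6 and other genes with upstream promoters, was higher at an FDR below 0.05 alone in 5 lines, with its largest change in NOMO-1 (0.76 ± 0.09, adjusted p = 3.69e-05, edgeR). SNAPc, which binds such promoters, was called in 0 of 50 pairs, with 16 lower and 5 higher at an FDR below 0.05 alone. MAF1, the repressor of polymerase III, had a median of -0.15 and was called in 0 lines, though lower at an FDR below 0.05 alone in 2. SSB, the La protein that binds new polymerase III transcripts, was lower at an FDR below 0.05 alone in 7 lines, with its lowest value in MONO-MAC-6 (-0.996 ± 0.073, adjusted p = 3.20e-07, edgeR). DESeq2 also called 0 pairs of TFIIIB, TFIIIC, SNAPc and MAF1, and at an unadjusted p below 0.05 by edgeR 17 of 40, 41 of 60, 26 of 50 and 4 of 10 pairs passed.

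The other polymerases were set beside the 9 genes as a description, since the set was chosen on this contrast. The 9 genes were called lower in 14 of 90 pairs (15.6%), 9 of which were POLR3G, and without POLR3G the count was 5 of 80 pairs (6.25%, against 3.96% of all pairs). The 6 polymerase I subunits that are not shared were called lower in 17 of 60 pairs (28.3%), POLR1G in 7 lines, POLR1B in 5, POLR1A in 4 and POLR1H in 1. The 7 polymerase II subunits that are not shared were called in 0 of 70 pairs, with 21 lower and 4 higher at an FDR below 0.05 alone, 30 at an unadjusted p below 0.05 by edgeR, and 0 called by DESeq2. The median of the 9 genes was above that of polymerase I in 10 of 10 lines, and below that of polymerase II in 6 lines and above it in 4 (5 and 5 without POLR3G). The list medians ran over lines from -1.33 to -0.23 for polymerase I and from -0.37 to -0.04 for polymerase II, where the median of all genes lay between -0.03 and 0.09.

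**Figure D5:**
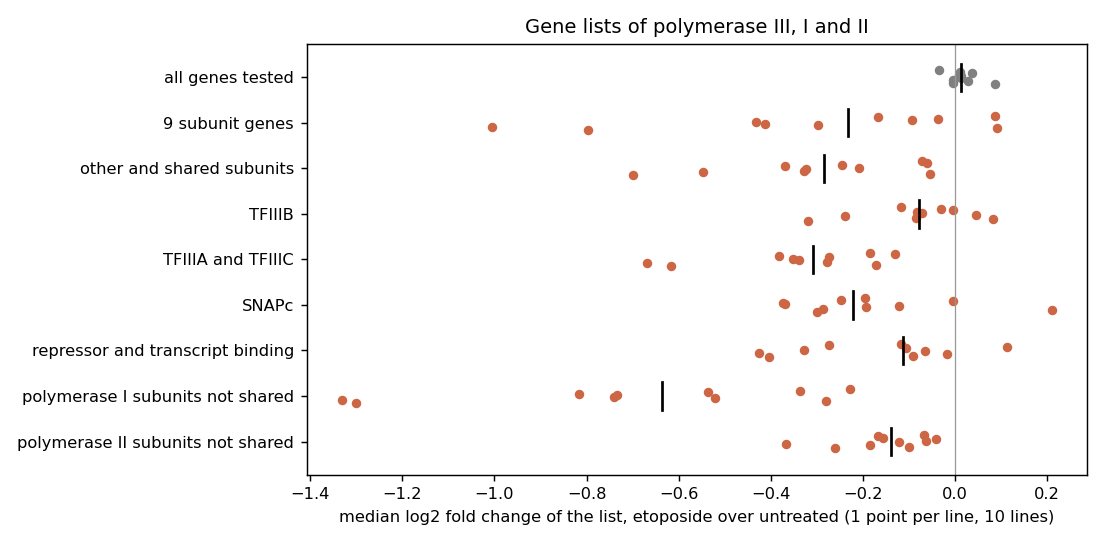
Median log2 fold change with etoposide of each gene list, with 1 point per line for the 10 lines other than OCI-AML2 and a black bar for the median of the points. The polymerase I list lies lowest (-1.33 to -0.23), the 9 subunit genes spread from -1.01 to 0.09 and all genes tested stay near 0.

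MYC, which encodes a transcription factor known to drive polymerase III genes, was lower in all 10 lines at an FDR below 0.05, from -3.75 ± 0.15 in F-36P (adjusted p = 5.16e-07, edgeR) to -0.56 ± 0.09 in HL-60 (adjusted p = 0.00071, edgeR). F-36P and MONO-MAC-6 had the lowest values for both genes, with MYC at -2.67 ± 0.06 in MONO-MAC-6, and HL-60 had the highest for both. By the IC50 values of the study, F-36P and MONO-MAC-6 were among the lines given the highest doses. The part of dose in the values of both genes was not tested. Across the 10 lines the log2 fold changes of POLR3G and MYC had a Pearson r of 0.74 and a Spearman rho of 0.73, and r was 0.65 over 9 lines without F-36P. In untreated cells the levels had r = 0.62 and rho = 0.61 over 11 lines. These values describe the lines, which share the depth and normalization of their libraries, and MYC was at rank 270 of 9552 coding genes by r with the POLR3G change.

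The genes whose pattern over lines was most like that of POLR3G were found by Pearson r among coding genes with at least 1 CPM. In untreated cells these were POLD1, the catalytic subunit of DNA polymerase delta (r = 0.95 over 11 lines, 0.93 without F-36P), MRPS11, a mitochondrial ribosomal protein (0.93), the corepressor TRIM28 (0.91), CCDC124 (0.89) and the importin IPO4 (0.88), out of 12122 genes. For the etoposide change over 10 lines, those among the first 5 that are reported here were MRPL21, another mitochondrial ribosomal protein (0.93), ATP5F1C of the ATP synthase (0.91), CNBP (0.90) and REXO4 (0.90), out of 9552 genes. No other subunit among the 9 was in either group. By Pearson r the closest were POLR3B for the untreated level (rank 262, r = 0.68) and POLR3K for the change (rank 168, r = 0.78). Without F-36P the untreated r was 0.50 for POLR3B and 0.58 for POLR3D. By Spearman rho POLR3D was the closest of the 9 genes in both, at 0.845 for the level (POLR3B 0.482) and 0.915 for the change (POLR3K 0.685).

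Markers of other cells were summed beside these results. Erythroid markers (GATA1, KLF1 and HBG1) summed to 528 CPM in untreated F-36P and to 282 CPM after etoposide there, while the other 10 lines held at most 16.1 CPM untreated, HBG1 being under 1 CPM in each of them. The sum of EPCAM, KRT8, COL1A1, CD3E and CD79A rose from 10.5 to 92.2 CPM in F-36P and from 32.3 to 109 CPM in NOMO-1, and was 85.4 and 87.5 CPM in KASUMI-1, most of it EPCAM. In MONO-MAC-6, with the largest POLR3G change, it was 3.99 and 14.2 CPM. Their part in the POLR3G result was not tested.

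By gene length, POLR3G is of middle size (42.8 kb). The 2802 coding genes between 20 and 50 kb had a mean log2 fold change over lines of -0.02 at the median, and -0.25 and 0.21 at the quartiles. POLR3B is the longest of the 9 (152.5 kb, mean -0.63), and the median over genes between 100 and 200 kb was -0.07, the quartiles being -0.25 and 0.16.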

How the data were processed

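RNA-seq libraries of 11 AML cell lines, untreated or treated with etoposide, were analysed. According to the methods, the authors checked reads with FastQC 0.11.5, mapped them with STAR 2.5.3a (genome GRCh38.p7, annotation gencode 25) and called genes with edgeR 3.20.1, the limits being a fold change over 2 and an FDR under 0.05. The deposited values are raw counts of reads per gene, in 1 column per library and without normalization. The kit marks strand, and of 707 genes inside an exon of the opposite strand 463 had reads, so the column was taken to count by strand. The count column, edgeR test and filter are not given in the sources used here.

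Here 45 pseudoautosomal copies without reads were left out, and 57992 identifiers stayed, of which 56948 were named with gencode release 44. Each line was fitted alone (3 untreated, 3 etoposide libraries) in R 4.3.3 with edgeR 4.0.16, using filterByExpr (minimum count 10, total 15), TMM and quasi-likelihood tests, whose p-values were adjusted by Benjamini-Hochberg over all genes of the fit. Untreated lines were compared in 1 fit of 33 libraries and 18130 genes. SE values are those of the log2 fold changes, taken as their absolute value over the square root of the quasi-likelihood F statistic. Levels between genes are CPM per kb of the gencode canonical transcript. Replicates differed beyond sampling noise in all 66 pairs (lowest chi-square per degree of freedom 2.05). The highest, 83.5, was between replicates 1 and 3 of untreated F-36P. In NB-4 deviations of same-numbered libraries correlated at 0.27, 0.22 and 0.15, above the limit of 0.1, and in no other line did all 3 pairs pass it. Libraries with different numbers were not compared in this way, so these values cannot show whether the numbers pair the libraries. Other steps used Python 3.11.15, pandas 2.3.3 and scipy 1.17.1.

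Named genes were the 9 subunit genes, the fixed lists of polymerase genes and cell markers, CDKN1A, MYC and the 5 genes most like POLR3G in each pattern; 1 polymerase gene, 1 cell marker and 1 like gene are not reported here, and list counts leave them out. These genes and lists were chosen with earlier results of these data known. Alternatives were RLE (also in DESeq2 1.42.0) or library size alone, no filter, 1 fit of 66 libraries, a replicate block, FDR alone and each replicate left out. Leaving out OCI-AML2 and levels per kb of all annotated exons were added after seeing the data. The co-expression networks and inhibitor experiments were not analysed here.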

Additional observations from a re-analysis of the deposited data

How the results depend on the processing

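No fold change of the 9 genes that was called changed sign under any alternative, and 131 of 132 alternative POLR3G log2 fold changes were negative, with shifts of at most 0.25. POLR3G was called in 8 to 9 lines when replicates were left out in turn and POLR3GL in 0 to 1. With library size alone POLR3GL was called in 1 line, the other 7 subunit genes in 2 pairs and the reported other polymerase III genes in 1 pair, against 0, 5 and 4. The last count was 8 with no filter on low counts, the cause of which was not tested, and 5 to 7 with replicates left out in turn: 7 without untreated replicate 3 or etoposide replicate 1. That scaling moved the median log2 fold change of all genes by 0.25 in F-36P, 0.21 in NB-4, 0.17 in KASUMI-1, 0.13 in MV-4-11, 0.12 in MONO-MAC-6 and 0.10 in HL-60, and it turned the sign of small changes only where the FDR limit was not passed. In 1 fit of all 66 libraries POLR3GL was called in 1 line. With the FDR alone, a wider rule by construction, POLR3GL was called in 7 lines, the other 7 genes in 47 pairs, the other polymerase III genes in 137 pairs and all genes in 74557 pairs (21491 with the fold change limit). By the FDR alone the untreated level differed in 41 pairs of lines for POLR3G, in 47 for POLR3GL and in 280 gene and pair combinations for the other 7 genes (13, 12 and 51 with the fold change limit). By all annotated exons, POLR3G exceeded POLR3GL per kb in 2 untreated lines instead of 1. Leaving out OCI-AML2, added after the data were seen, could change no count of calls by both limits, since 0 of 13604 genes were called there.

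With the replicate block the counts were 9 lines for POLR3G, 0 for POLR3GL, 5 and 4 pairs for the other subunits and other polymerase III genes and 21434 pairs over all genes, and the untreated counts were 13, 12 and 51; the block changed no call of a subunit gene. At the depth of MONO-MAC-6 etoposide libraries POLR3G rested on 41 to 58 reads per library, the fewest of its groups, so counting error is largest there.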
